A study of Mus musculus with 16 samples.

Results

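The genes described here are 10 antioxidant and stress genes of the mouse heart: the superoxide dismutases Sod1, Sod2 and Sod3, the peroxiredoxins Prdx3 and Prdx5, the thioredoxin Txn2, the thioredoxin-binding protein gene Txnip, the haem oxygenase Hmox1 and the metallothioneins Mt1 and Mt2. Every probe set that the array's annotation assigns to exactly 1 of these symbols was taken, which gave 21 probe sets of 34945 that carry a single gene. They cover 9 of the 10 genes, and Prdx5 is not analysed here because no probe set was assigned to it alone. The study crossed genotype with pressure overload in left ventricles, with 4 groups of 4 arrays: wild-type (WT) mice and PPARalpha-/- (KO) mice, each after a sham operation or 28 days after transverse aortic constriction (TAC), a band on the aorta that makes the left ventricle pump against a higher pressure. PPARalpha is a nuclear receptor that drives genes of fatty acid use, and the question put by the design was which cardiac genes depend on it at rest and under load. The labels give no strain, sex or age, and do not say that each array of a group had its own animal. Every p-value here therefore rests on array-to-array spread, part of which may be technical.

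Superoxide leaks from the respiratory chain and from oxidases. Superoxide dismutases turn it into hydrogen peroxide: Sod1 in the cytosol, Sod2 in the mitochondrial matrix and Sod3 outside the cell. Peroxiredoxins reduce the peroxide and are themselves recharged by thioredoxins, with Prdx3 and Txn2 forming the pair of the mitochondrial matrix, while Txnip binds thioredoxin and restrains it. Hmox1 degrades haem and is a classical target of the oxidant sensor Nrf2. Metallothioneins are small cysteine-rich proteins that bind zinc and copper, and their genes are switched on by metals through the factor MTF1 and by glucocorticoids.

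Levels are array signals on the deposited scale, on which the trimmed mean of each array is 500.0. The main values of a gene come from its brightest probe set, by mean log2 signal. Differences are log2 fold changes with their standard errors from limma, fitted over all 16 arrays and 10916 genes, with Benjamini-Hochberg adjustment over all of those genes and a gene called at an adjusted p under 0.05. All 9 measured genes passed the filter on dim genes, as did 20 of their 21 probe sets. The exception was the Sod1 probe set 1447761_x_at, whose signal lay between 3.9 and 81.3. The median signal of an array ran from 108.3 to 163.0. Ppara itself, read by probe set 1457721_at, gave signals of 1384.9 to 2307.6 in the 8 WT arrays and of 388.1 to 727.1 in the 8 KO arrays, so the genotypes did not overlap.

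Mt2 was the only measured member called in any comparison: it rose 2.62-fold with TAC in KO hearts. Sod1 had the lowest mean in KO hearts after TAC, but that mean rests on 2 arrays far below the other 2. Sod3, Sod2, Prdx3 and Txnip moved by less and did not pass the adjusted threshold. With TAC in KO hearts, 1 of 9 members was called, beside 2.57% of all genes tested. Between KO and WT, 0 of 9 members were called after sham surgery, where 0.742% of all genes were (0 of 9 and 5.91% had groups that did not overlap), and 0 of 9 after TAC, where 2.46% were. With TAC in WT hearts 0 of 9 were called, and 0% of all genes. The interaction, which is the TAC response in KO minus that in WT, also gave 0 of 9 and 0% of all genes.

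At an unadjusted limma p under 0.05 the members counted 1 of 9 for KO against WT in sham (8.52% of all genes) and 3 of 9 for KO against WT in TAC (16.4%). They counted 1 of 9 for TAC in WT (7.62%), 3 of 9 for TAC in KO (16%) and 2 of 9 for the interaction (10.3%). The median member difference was -0.02 for KO against WT in sham, -0.27 for KO against WT in TAC, 0.05 for TAC in WT and 0.02 for TAC in KO. The same medians over all genes tested were 0.02, 0.03, -0.00032 and 0.00026. The negative median in KO against WT after TAC came with lower values for Sod1, Sod2, Prdx3, Txn2, Mt1 and, by a small margin, Txnip.

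**Figure D1:**
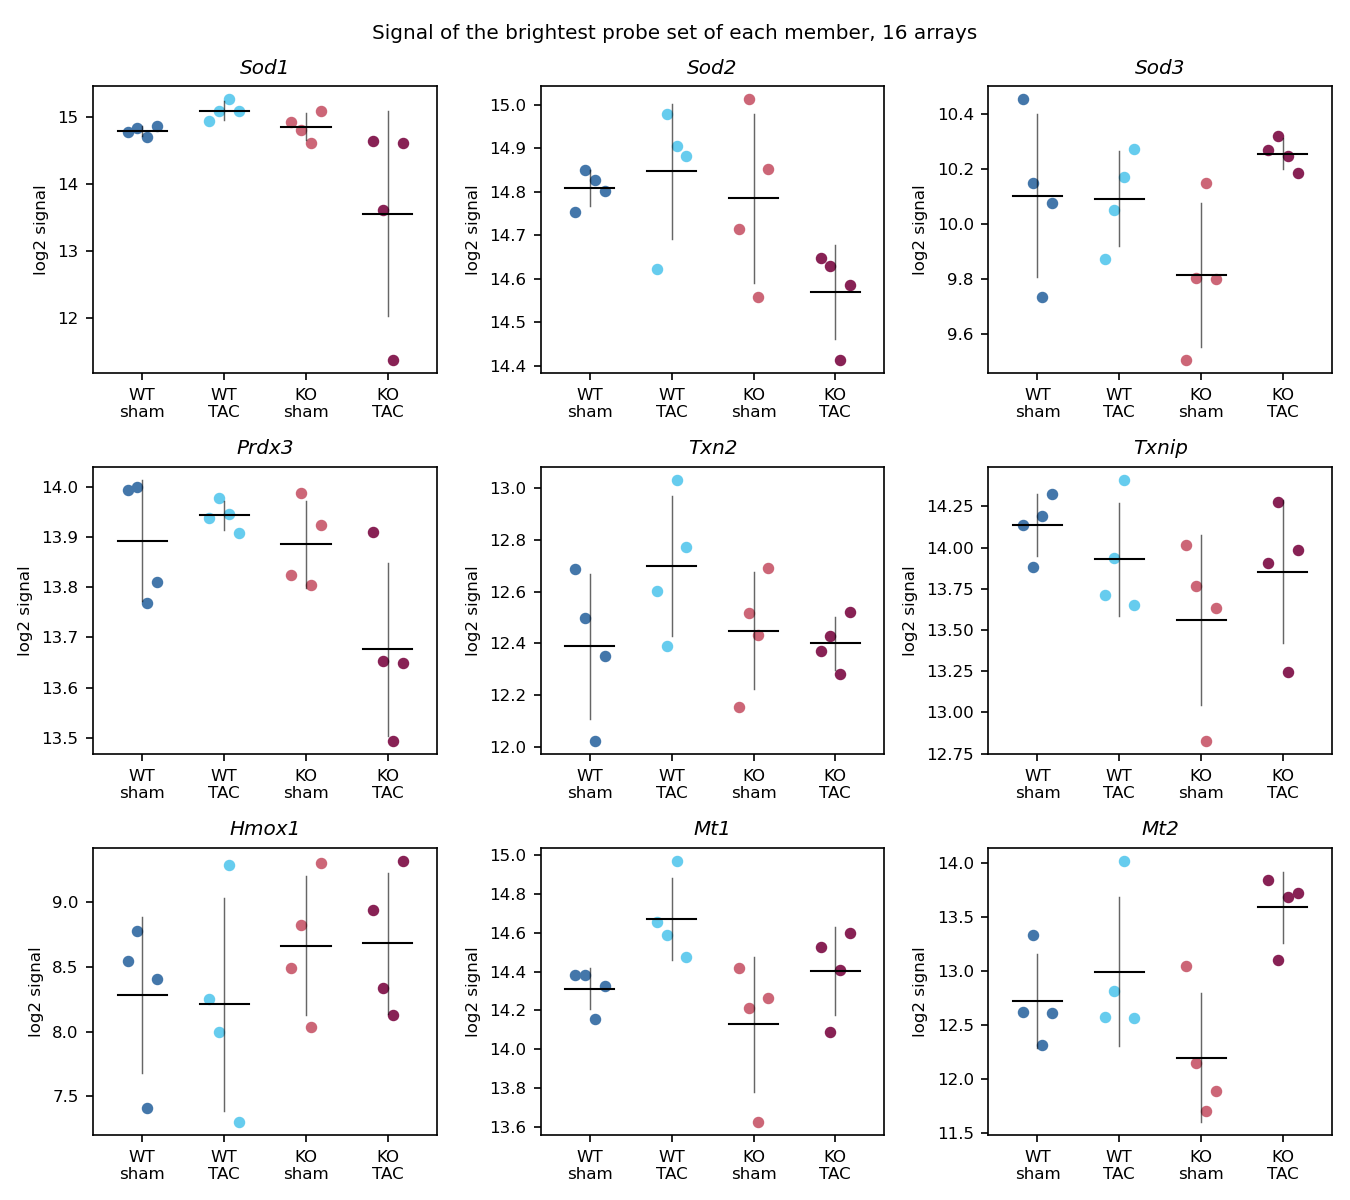
Log2 signal of the 9 measured genes on each of the 16 arrays, with replicates 1 to 4 of each group from left to right, the group mean as a black bar and 1 SD to either side as a thin line. Sod1 is far lower on KO TAC replicates 2 and 3, while replicates 1 and 4 lie within the KO sham range and below all WT arrays. All 4 KO TAC arrays of Mt2 lie above all 4 KO sham arrays.

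**Figure D2:**
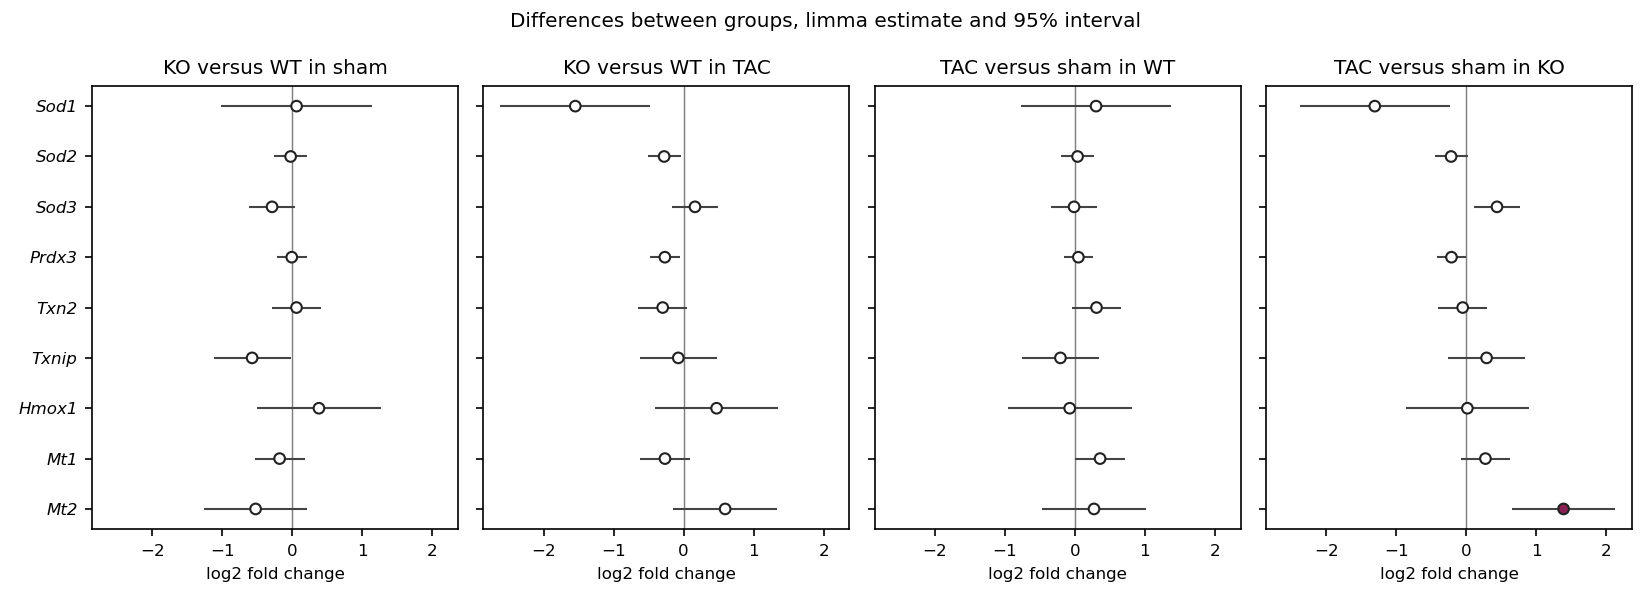
Log2 fold changes of the 9 genes in the 4 comparisons between groups, with points for the limma estimate, bars for its 95% interval and filled points for an adjusted p under 0.05. The single filled point is Mt2 for TAC against sham in KO, at 1.39, and the widest bars belong to Sod1.

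The metallothioneins come first because Mt2, the called gene, is one of them. The mouse genes Mt2 and Mt1 are neighbours on chromosome 8, and their promoter windows start 6471 bases apart on the plus strand. The windows below, from 250 bases before to 50 after the RefSeq start on GRCm38.p6, are printed because they carry metal response motifs and Mt2 is the called gene. Capitals mark matches to TGCACNC or TGCGCNC, the core letters bound by MTF1, searched on both strands. Mt2 lies at chr8:94172368-94172667 and Mt1 at chr8:94178839-94179138.
Mt2: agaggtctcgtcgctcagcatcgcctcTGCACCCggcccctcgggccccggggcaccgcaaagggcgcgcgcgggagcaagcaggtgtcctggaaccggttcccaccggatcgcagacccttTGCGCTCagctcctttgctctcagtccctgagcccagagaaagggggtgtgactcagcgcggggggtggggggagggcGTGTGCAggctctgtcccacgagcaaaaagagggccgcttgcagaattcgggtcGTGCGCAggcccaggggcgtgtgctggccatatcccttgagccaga
Mt1: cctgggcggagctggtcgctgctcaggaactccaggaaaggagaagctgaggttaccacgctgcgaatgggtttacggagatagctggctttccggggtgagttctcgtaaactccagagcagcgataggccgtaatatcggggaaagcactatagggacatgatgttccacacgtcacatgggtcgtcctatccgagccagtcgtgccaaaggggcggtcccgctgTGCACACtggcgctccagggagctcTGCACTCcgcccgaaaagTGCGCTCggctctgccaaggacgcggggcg

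The Mt2 window holds 4 matches, a number reached by 0.517% of the 32851 promoter windows of the same length. The Mt1 window holds 3, reached by 1.97%. The Mt2 match at position 5 and the Mt1 matches at positions 3 and 21 lie after the start, not before it. At least 1 match occurred in 25.7% of all windows, so the single match in the Txnip window is common. The Txn2, Sod1, Sod2, Prdx3 and Prdx5 windows hold 0. The Sod3 and Hmox1 windows were not analysed here. The antioxidant response letters TGACNNNGC occurred once in Mt2 and once in Sod1, against 12.4% of all windows with at least 1. No window of the 8 genes held CACGTG, found in 7.15% of all, or TGTTCT, found in 19% of all, or 2 copies of AGGTCA with 1 base between, found in 0.0396% of all. A match is a description of letters and not evidence of binding, and the lack of one says only that the letters are not in these 300 bases.

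Mt2 (probe set 1428942_at) gave signals of 6283, 10336, 5100 and 6248 in WT sham hearts and of 6108, 7219, 16585 and 6044 in WT TAC hearts. In KO hearts the signals were 8460, 4535, 3332 and 3783 after sham and 14699, 8792, 13124 and 13519 after TAC. All 4 KO TAC arrays lay above all 4 KO sham arrays, although the lowest of the former and the highest of the latter were only 332.0 units apart. Across all genes, 10.8% had KO TAC and KO sham arrays that did not overlap. In WT hearts the groups overlapped, with WT TAC replicate 3 alone above every WT sham array. The rise in KO was 1.39 ± 0.35 (SE, n = 4 and 4, 95% interval 0.65 to 2.13, limma adjusted p = 0.0466). The WT difference was 0.27 ± 0.35 (adjusted p = 0.903). The difference between these responses was 1.12 ± 0.49 (interval 0.07 to 2.16, limma adjusted p = 0.466), so a larger response in KO than in WT was not called. After TAC, KO exceeded WT by 0.59 ± 0.35 (adjusted p = 0.422), and after sham KO was at -0.52 ± 0.35 relative to WT (adjusted p = 0.751). The call sits close to the threshold: without both KO TAC arrays of low Sod1 signal the rise was 1.59 with an adjusted p of 0.192, and leaving out 1 array at a time gave 1.23 to 1.68 with adjusted p from 0.0169 to 0.126. The call was kept without WT sham replicate 2, WT TAC replicate 3 or KO sham replicate 1, and lost without any other array.

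Mt1 was read by probe set 1422557_s_at, whose suffix marks probes that can match more than 1 transcript. WT sham signals were 21319, 21326, 18283 and 20529, and WT TAC signals were 25792, 24594, 32076 and 22780. All WT TAC arrays lay above all WT sham arrays, a separation that 2 of 9 members (Mt1 and Sod1) and 4.28% of all genes showed. The difference was 0.36 ± 0.17 (limma adjusted p = 0.65). In KO hearts the signals were 21907, 18954, 12638 and 19666 after sham and 23603, 17408, 21716 and 24854 after TAC. These groups overlapped, and the difference was 0.28 ± 0.17 (adjusted p = 0.457). The Mt1 responses in KO and WT differed by -0.08 ± 0.24 (interval -0.59 to 0.42), unlike the larger estimate for Mt2. The dimmer Mt1 probe set 1451612_at, with signals of 185.9 to 703.4 over the 16 arrays, gave overlapping groups throughout.

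**Figure D3:**
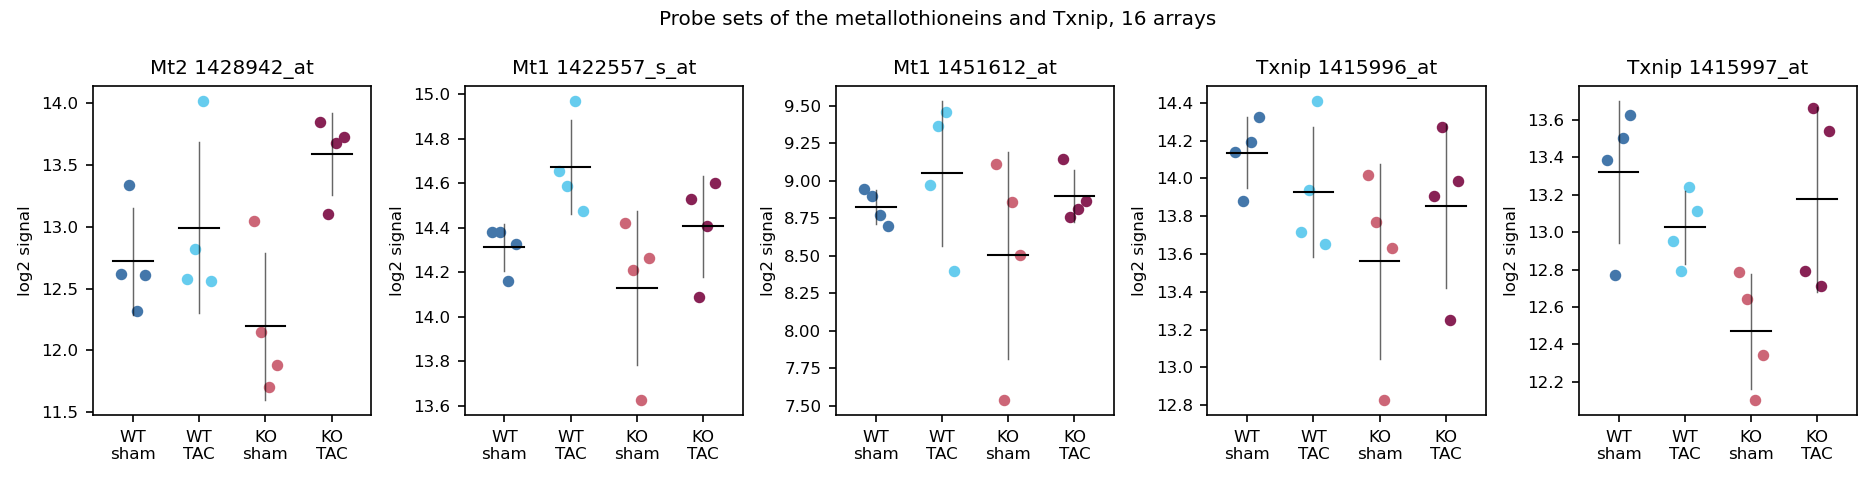
Log2 signal of the Mt2, Mt1 and Txnip probe sets on each array, with replicates 1 to 4 of each group from left to right, group means as black bars and 1 SD to either side as thin lines. The 4 KO sham arrays of Txnip probe set 1415997_at lie between 4398 and 7071 signal units, and Mt2 in KO TAC stands above KO sham.

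Sod1, the copper and zinc dismutase of the cytosol, read by probe set 1451124_at, gave signals of 28300, 29260, 26613 and 30077 in WT sham hearts. WT TAC hearts had 31487, 34957, 39657 and 35168, all above the WT sham arrays, with a difference of 0.30 ± 0.50 (adjusted p = 0.925). That error pools the spread of all groups, and the KO TAC arrays had by far the largest log2 SD, 1.54. The WT arrays had SDs of only 0.08 after sham surgery and 0.14 after TAC. The p-value therefore does not measure the WT difference against the spread of the WT arrays alone. KO sham hearts had 31204, 28689, 25009 and 35048. KO TAC hearts had 25551, 12468, 2636 and 25092. Replicates 1 and 4 of that group lay near the lower KO sham arrays, replicate 2 lay clearly below them and replicate 3 was lower still. After TAC the KO arrays all lay below the WT arrays, as 1 of 9 members and 9.55% of all genes did. The difference was -1.55 ± 0.50 (interval -2.62 to -0.47, limma adjusted p = 0.135). Against KO sham it was -1.30 ± 0.50 (adjusted p = 0.205), and the interaction was -1.61 ± 0.71 (adjusted p = 0.469). Without KO TAC replicate 3 the KO against WT difference after TAC was -0.82 (adjusted p = 0.0846), and without replicates 2 and 3 it was -0.48 (adjusted p = 0.226). Against KO sham the same omission of both arrays left -0.23 (adjusted p = 0.672).

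Other Sod1 probe sets showed where the drop does and does not appear. The second brightest, 1459976_s_at, gave 13948, 8322, 2053 and 11534 on the KO TAC arrays, against 15546 to 17742 in WT TAC. Its KO against WT difference after TAC was -1.22 ± 0.42 in a fit of 20967 probe sets (limma adjusted p = 0.201). The dimmer 1440222_at was lowest on replicate 2 (54.3) and next lowest on replicate 3 (113.6), with 272.5 and 220.2 on the other two. Probe set 1435304_at did not follow: its KO TAC signals were 539.3, 348.3, 425.1 and 446.3, among 338.3 to 539.3 over all 16 arrays, and KO TAC replicate 1 was the highest. Its KO against WT difference after TAC was 0.20 ± 0.16 (adjusted p = 0.601).

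The 2 arrays with low Sod1 also had the lowest signal of the 18 spike-in probe sets, which read hybridisation controls (BioB, BioC, BioDn and Cre). Their mean log2 spike-in signals were 12.42 (replicate 2) and 12.28 (replicate 3), against 12.61 to 13.36 on the other 14 arrays. They also had the lowest median signals, 108.3 and 114.5. With spike-in signal as a covariate, the Sod1 difference was -0.31 for KO against WT after TAC. Over 32 alternatives it ran from -1.91 to -0.31, with limma adjusted p from 0.0651 to 0.906. Low Sod1 and the lowest spike-in signals fell on the same 2 arrays, so this fit cannot tell them apart. The part of these array differences in the Sod1 result was not tested further. The genes whose pattern over the 16 arrays was most like Sod1, by the root mean square difference of centred log2 signals, were Gnb1 (0.16), Tmem250-ps (0.21) and Gatad1 (0.22). Gnb1 probe set 1454696_at gave 5004.8, 2804.5, 551.9 and 5151.3 on the KO TAC arrays, while a second Gnb1 probe set, 1417432_a_at, gave 1386.3, 1476.5, 1300.7 and 1740.5. Gatad1 likewise was low on replicates 2 and 3 with probe set 1452085_at (3382.2, 1850.7, 652.6 and 3177.9) but not on replicate 3 with 1425599_a_at (899.5, 587.0, 810.7 and 715.9). On KO TAC replicate 3, 168 of the 10916 genes lay at least 2-fold below the mean of the other 3 arrays of the group, and 5, Sod1 included, lay as far below as Sod1. Over the 16 arrays the 2-fold count ran from 126 (KO TAC replicate 1) to 372 (WT TAC replicate 3). KO TAC replicate 3 did not stand out by this count. WT TAC replicate 3 had the highest median signal (163.0) and the highest mean log2 spike-in signal (13.36) of the 16 arrays. It also had the most genes at least 2-fold above the mean of the other 3 arrays of its group, 466. That array held the highest WT TAC signals of Sod1, Mt1, Mt2, Txn2 and Hmox1.

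**Figure D4:**
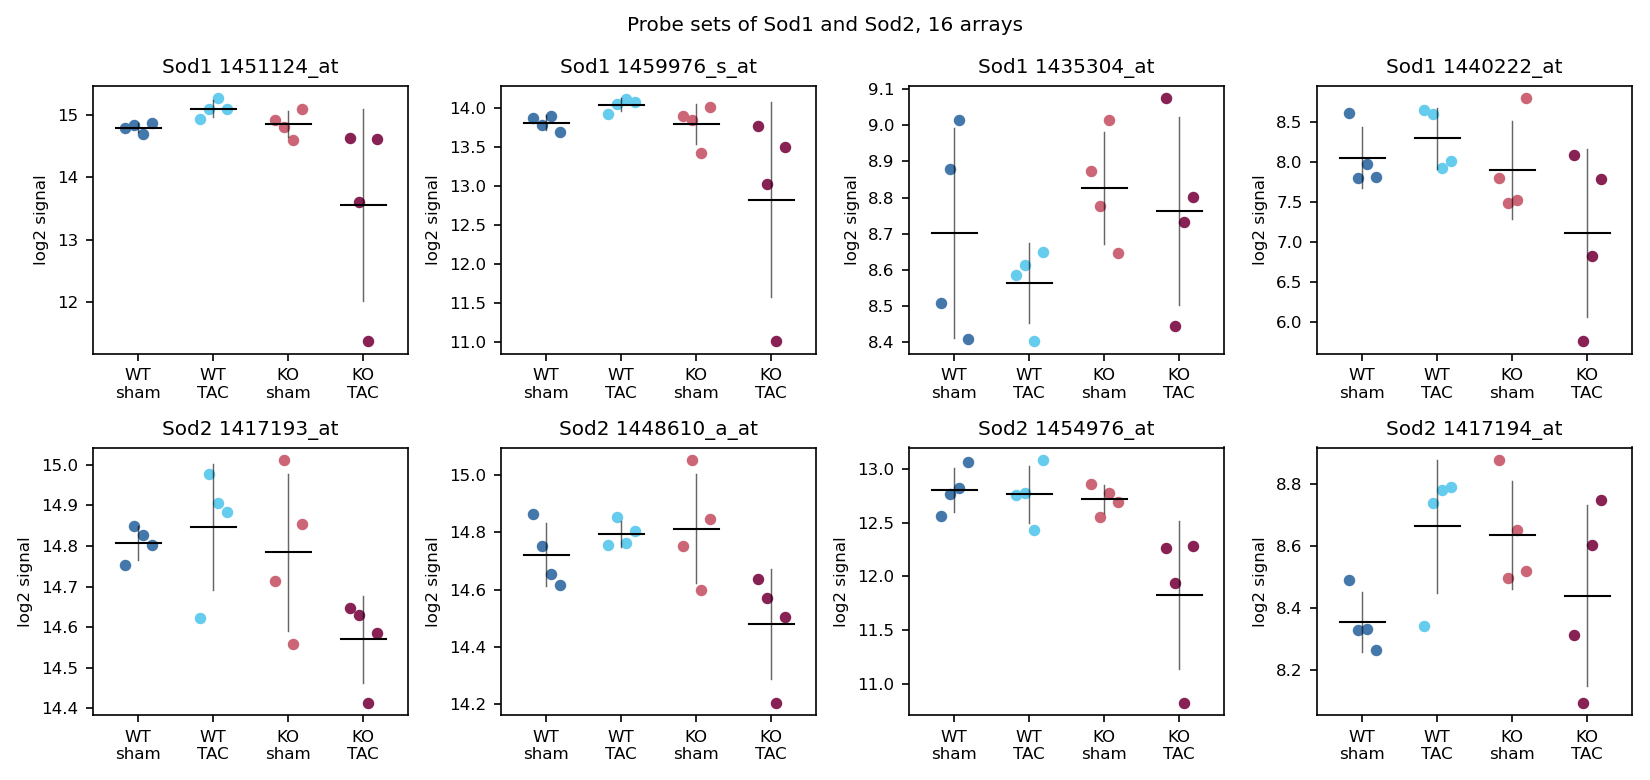
Log2 signal of the Sod1 and Sod2 probe sets that passed the filter, on each array, with replicates 1 to 4 of each group from left to right, group means as black bars and 1 SD to either side as thin lines. KO TAC replicate 3 is the lowest array for Sod1 1451124_at and 1459976_s_at and for Sod2 1417193_at, 1448610_a_at and 1454976_at. It is not the lowest for Sod1 1435304_at and 1440222_at or for Sod2 1417194_at.

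Sod2, the manganese dismutase of the mitochondrial matrix, varied little: the SD of log2 signal over the 16 arrays was 0.17, against 0.93 for Sod1. Its probe set 1417193_at gave 27620, 29541, 29068 and 28560 in WT sham and 25222, 32259, 30699 and 30213 in WT TAC. KO sham hearts had 26860, 33054, 24135 and 29594, and KO TAC hearts had 25681, 25361, 21824 and 24598. The KO TAC arrays were the lowest group on average, lay below all WT sham arrays, and overlapped WT TAC and KO sham. KO TAC replicate 3 was the lowest of the 16 arrays. KO against WT after TAC was -0.28 ± 0.11 (interval -0.51 to -0.04, limma adjusted p = 0.224), and TAC against sham in KO was -0.21 ± 0.11 (adjusted p = 0.361). The KO against WT difference after TAC shrank to -0.13 with quantile normalisation and to -0.09 with arrays centred on their medians. Median centring itself moved the median difference of all genes in that comparison to 0.22.

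A further Sod2 probe set, 1454976_at, gave a larger difference. Its signals were 4907, 3918, 1816 and 4996 in KO TAC, all below the 5539 to 8684 of WT TAC and the 6022 to 7432 of KO sham. Among all genes, read by their brightest probe sets, 9.55% and 10.8% had groups that did not overlap in these comparisons, in that order. The share over all probe sets was not computed. KO against WT after TAC was -0.94 ± 0.26 (limma adjusted p = 0.106 over all probe sets), and TAC against sham in KO was -0.89 ± 0.26 (adjusted p = 0.130). Its lowest array was again KO TAC replicate 3. Probe set 1448610_a_at, with 18887 to 25486 in KO TAC and 27629 to 29616 in WT TAC, gave -0.31 ± 0.12 (adjusted p = 0.244). The dim probe set 1417194_at, at 273.5 to 470.6 over the 16 arrays, did not separate the TAC groups.

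Sod3, the dismutase secreted into the matrix around the cell, moved the other way with TAC in KO hearts. With probe set 1417633_at the signals were 1403, 1137, 852 and 1080 in WT sham and 939, 1060, 1154 and 1238 in WT TAC. KO sham hearts had 728, 894, 1135 and 891, and KO TAC hearts had 1234, 1279, 1216 and 1165. The KO TAC arrays were tightly grouped and all lay above the KO sham arrays, which 2 of 9 members, Mt2 and Sod3, showed beside 10.8% of all genes. The difference was 0.44 ± 0.15 (interval 0.11 to 0.77, limma adjusted p = 0.158), in WT it was -0.01 ± 0.15, and the interaction was 0.45 ± 0.22 (adjusted p = 0.495). KO against WT was -0.29 ± 0.15 after sham (limma adjusted p = 0.653) and 0.16 ± 0.15 after TAC (adjusted p = 0.659). With this probe set the KO TAC arrays lay within the range of the WT sham arrays, and KO sham had the lowest mean. The second probe set, 1417634_at, gave 0.58 ± 0.20 in KO (adjusted p = 0.208), with 607.8 to 751.0 in KO TAC and 359.3 to 631.8 in KO sham, groups that overlapped at their edges. Fibroblasts are a known source of extracellular matrix proteins, and the summed signal of 8 fibroblast markers was 63488 to 70779 in KO TAC against 41124 to 48036 in KO sham. Their part in the Sod3 and Mt2 values was not tested. In a whole ventricle, fewer cells of a type and less RNA per cell cannot be told apart.

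Prdx3, which reduces hydrogen peroxide in the mitochondrial matrix, had the smallest spread of the members, an SD of 0.15 over 16 arrays. Its single probe set, 1416292_at, gave 13955 to 16384 in WT sham, 15385 to 16148 in WT TAC and 14300 to 16255 in KO sham. KO TAC arrays had 15390, 12876, 11534 and 12844, so replicate 1 lay within the other groups and the remaining 3 below all of them. KO against WT after TAC was -0.27 ± 0.10 (limma adjusted p = 0.191), TAC against sham in KO was -0.21 ± 0.10 (adjusted p = 0.319), and the interaction was -0.26 ± 0.14 (adjusted p = 0.543). With arrays centred on their medians the first of these was -0.08, while the median difference of all genes in that comparison moved to 0.22.

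Txn2, which recharges Prdx3, gave 4161 to 6588 in WT sham and 6212, 5363, 8369 and 7004 in WT TAC with probe set 1455640_a_at. KO signals were 4554 to 6620 after sham and 4973 to 5882 after TAC. The WT TAC group was highest on average and overlapped the others. TAC against sham in WT was 0.31 ± 0.16 (adjusted p = 0.68), and KO against WT after TAC was -0.30 ± 0.16 (adjusted p = 0.381). The other Txn2 probe sets, 1421557_x_at (3096 to 4724) and 1452782_a_at (2409 to 4864), had overlapping groups in every comparison.

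Txnip, the thioredoxin-binding protein, is also known to rise with glucose and to limit glucose uptake. Its brighter probe set, 1415996_at, gave 18040, 15077, 18738 and 20555 in WT sham and 16590, 13936, 7266 and 12697 in KO sham. KO sham arrays were mostly lower, and replicate 3 was the lowest of all 16. The difference was -0.57 ± 0.26 (interval -1.12 to -0.02, limma adjusted p = 0.552). The second probe set, 1415997_at, gave 10709, 6996, 11604 and 12656 in WT sham and 7071, 6394, 4398 and 5207 in KO sham, a difference of -0.85 ± 0.24 (adjusted p = 0.28). WT sham replicate 2 and KO sham replicate 1 were the arrays that overlapped. After TAC the KO signals of this probe set were 7084, 12962, 6717 and 11907, and those of WT were 7924, 7104, 9698 and 8866. TAC against sham in KO was 0.71 ± 0.24 (adjusted p = 0.208), and the interaction was 1.00 ± 0.35 (adjusted p = 0.453). With the brighter probe set, the same quantities were 0.29 ± 0.26 and 0.50 ± 0.36, and neither probe set passed the threshold.

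Hmox1 varied within every group. Probe set 1448239_at gave 374, 438, 170 and 339 in WT sham, 305, 256, 626 and 158 in WT TAC, 360, 454, 262 and 634 in KO sham and 493, 324, 280 and 639 in KO TAC. All 4 groups overlapped one another, and the SD over 16 arrays was 0.61. KO against WT was 0.38 ± 0.41 after sham (interval -0.50 to 1.26) and 0.47 ± 0.41 after TAC (interval -0.41 to 1.35). TAC in KO gave 0.02 ± 0.41, with an interval of -0.87 to 0.90, so changes approaching 2-fold in either direction lie within it.

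The other genes of these pathways were counted by list. Of 12 tested genes of the thioredoxin and peroxiredoxin system, 0 were called in any of the 5 comparisons, and 0 to 4 had an unadjusted limma p under 0.05. The smallest p after TAC belonged to Srxn1, which repairs overoxidised peroxiredoxins, at 0.47 ± 0.14 for KO against WT (adjusted p = 0.114). For TAC in KO it belonged to Prdx2, a cytosolic peroxiredoxin, at -0.27 ± 0.08 (adjusted p = 0.107). Of 9 tested genes that make or handle superoxide and hydrogen peroxide, only Nnt was called. Nnt encodes the mitochondrial transhydrogenase, which supplies the NADPH that thioredoxin and glutathione reductases use.

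Nnt signals were 12964, 13988, 14905 and 15141 in WT sham and 12800, 13404, 15734 and 15112 in WT TAC. KO hearts had 29235, 28077, 30835 and 34447 after sham and 19197, 18560, 22467 and 20508 after TAC. No KO array overlapped a WT array, and the KO groups were apart from each other. Nnt was higher in KO after sham (1.10 ± 0.10, adjusted p = 3.2e-05) and after TAC (0.50 ± 0.10, adjusted p = 0.0189), and fell with TAC in KO (-0.60 ± 0.10, adjusted p = 0.0063). When the probe sets of a gene were averaged, the sham difference was 0.63 (adjusted p = 0.568). The Nnt calls were kept in 31, 23 and 27 of 32 alternatives, in that order.

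Of 10 tested genes of the Nrf2, haem and iron list, 0 were called in any comparison, and 1 to 3 had an unadjusted limma p under 0.05. Fth1, the ferritin heavy chain, came nearest in KO against WT after TAC, at -0.45 ± 0.12 (adjusted p = 0.0609). Of 6 tested metal handling genes, 0 were called and 0 to 2 had an unadjusted p under 0.05 in a comparison, and the zinc transporter Slc39a6 had the smallest p for TAC in KO, at 0.56 ± 0.17 (adjusted p = 0.113). The glucocorticoid-responsive list, tested in all 10 of its genes, was examined because glucocorticoids induce metallothioneins. It held 1 gene higher in KO after TAC, the clock gene Per1 (0.70 ± 0.16, adjusted p = 0.0336), and 1 lower, Pdk4 (-0.91 ± 0.21, adjusted p = 0.0377). Pdk4 restrains pyruvate oxidation, is a known PPARalpha target, and was also lower in KO after sham (-1.16 ± 0.21, adjusted p = 0.0164). Over 32 alternatives the Per1 call was kept in 18, the Pdk4 call after TAC in 14 and that after sham in 25. The list's median for TAC in KO was 0.31, with 7 of 10 values above 0, 0 called and 1 at an unadjusted p under 0.05, and for TAC in WT it was -0.38, with 1 of 10 above 0, 0 called and 2 at an unadjusted p under 0.05.

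Of 11 tested genes of mitochondrial content, 1 was called lower (6 at an unadjusted p under 0.05) in KO against WT after TAC, the citrate synthase gene Cs (-0.37 ± 0.08, adjusted p = 0.0248), a call kept in 18 of 32 alternatives. The median of the list in that comparison was -0.27, with 1 of 11 values above 0, beside -0.28 for Sod2 and -0.27 for Prdx3. The summed signal of the mitochondrial list was 434359 to 524702 in WT TAC and 340613 to 413480 in KO TAC. The part of mitochondrial content in the values of Sod2, Prdx3 and Txn2 was not tested.

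Cell type markers differed between the groups too. Of 8 fibroblast markers 4 were called higher in KO than WT after TAC, and 4 with TAC in KO. The summed fibroblast signal was 43766 to 57051 in WT TAC, so KO TAC lay above every other group. Of 9 macrophage markers 3, the complement genes C1qa, C1qb and C1qc, were called higher in KO than WT after TAC, with sums of 29328 to 36809 against 21069 to 28038. After sham the macrophage sums were 26003 to 29590 in KO and 22666 to 24734 in WT, which did not overlap, and 0 of the 9 markers were called there (4 at an unadjusted limma p under 0.05). Of 8 cardiomyocyte markers 0 were called between KO and WT after TAC by limma, although all 8 had an unadjusted p under 0.05 and a negative difference, with sums of 590807 to 823314 in WT TAC and 439376 to 566806 in KO TAC. The KO TAC sums overlapped those of WT sham, 471048 to 571194, and of KO sham, 519520 to 629268. With TAC in WT the cardiomyocyte median was 0.31, with 0 of 8 called and 7 of 8 at an unadjusted p under 0.05. The fat markers on the array were all below the filter, and the summed signal of 3 atrial markers ran from 253.6 to 26325, highest in a KO sham array. The part of these cell types in the members' values was not tested.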

How the data were processed

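Left ventricular mouse RNA was labelled with biotin by a one-cycle protocol and hybridised to 16 Affymetrix 430 2.0 arrays, per the labels. The authors deposited one signal intensity per probe set and array, and GCOS 1.4 is the software listed per the submitters' processing notes. Every array had a trimmed mean of 500.0, so the deposited intensity is scaled per array and was not normalised again. Of 45101 probe sets, 64 controls, 932 with several genes and those without a gene symbol were left out, and 34945 were kept. Symbols came from the platform annotation. For 34754 probe sets the gene ID matched a RefSeq gene, whose symbol was used. Intensities were floored at 11.9 (the 10th percentile) and converted to log2. Each gene was represented by its brightest probe set, and the dimmest 40% of genes were left out. Groups came from sample titles. limma 3.58.1 in R 4.3.3 fitted 1 mean per group over 16 arrays. A second fit covered all probe sets. The members and lists were chosen with earlier results of these data known, and all members were named. The other genes named are the called ones of each list or the one with the smallest p, and the 3 genes most like a member. Precision is limited by 4 arrays a group, and the intensities carry no counts. Scaling, floor, filter, summary, model and left-out arrays were varied.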

Additional observations from a re-analysis of the deposited data

Results flagged for a closer look

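The dim Sod2 probe set 1417194_at gave a signal of 324.9 on WT TAC replicate 1, while the other 3 arrays of that group had 427.6 to 442.9. The gap to the nearest array was 0.887 of the group's whole range, above Dixon's 95% critical value for 4 values. It was 1 of 80 groups of 4 values checked, and chance alone passes that limit in about 1 of 20 groups. The brighter Sod2 probe sets were not set apart on that array by the same limit.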

How the results depend on the processing

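The count of members called stayed at 0 in every alternative for KO against WT in sham, KO against WT in TAC, TAC in WT and the interaction. For TAC in KO the count of 1 (Mt2) became 0 without a filter on dim genes, with all probe sets fitted separately, with probe sets averaged, without probe sets that can match several transcripts, with only the arrays compared, without the 3 arrays of outlying spike-in signal, and, an alternative chosen after seeing the data, without both KO TAC arrays of low Sod1 signal. Leaving out each array gave a count of 0 to 1. The Mt2 difference itself ran from 1.23 to 1.72 over 32 alternatives, with adjusted p from 0.0169 to 0.192, past the threshold in 11. Replicate numbers are shared between groups, and the labels do not say what they mean. Deviations from the group means correlated at -0.185 to 0.137 between same-numbered arrays. Arrays of different number were not set beside them, so these correlations cannot decide whether the numbers mark a pairing or a batch. With the replicate number as a block the count was 0 and the Mt2 adjusted p was 0.0918. The Sod1 interaction changed sign when spike-in signal was a covariate, to 0.20 (adjusted p = 0.985), and the cause was not tested. The Sod1 probe set 1447761_x_at was too dim to test, and 4 arrays a group limit the precision of the rest.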

Other observations

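Among the 25 tested genes that lay farthest below the mean of the other 3 KO TAC arrays on replicate 3, chosen after their values were seen, 9 had a mean signal of at least 1000 on those other arrays. Nipsnap2 had the largest gap, with 25776, 7978, 1110 and 25375 on replicates 1 to 4. The zinc transporter gene Slc39a1 had 4578, 2796, 658 and 3584, and the galactosyltransferase gene B4galt1 had 7470, 4186, 1232 and 5918. Of the 9 genes, 4 had another probe set of mean signal at least 100, and 3 of these 8 other probe sets were at least 2-fold lower on that array: 1 of Sod1 and 2 of Hspa1b. Hspa1b, a heat shock gene, differed from the rest, with 1089, 8021, 718 and 5863 against a mean of 2161 over the 16 arrays. Its gap on replicate 3 therefore also rests on high values of replicates 2 and 4.

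Genes with a pattern over the 16 arrays most like Mt2 were the macrophage gene Mpeg1 (root mean square difference 0.41), the matrix-associated gene Ccn2 (0.42) and Rab7b (0.43). These are loose matches, as the SD of Mt2 itself was 0.70. Among the KO TAC arrays Ccn2 was lowest on replicate 1 and highest on replicate 2, the reverse of Mt2. Mpeg1 and Rab7b were lowest on replicate 2, as Mt2 was. For Hmox1, with an SD of 0.61, the nearest genes were Fbxo36 (0.37), Gipc2 (0.38) and Slc10a6 (0.38).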
